A study of Saccharomyces cerevisiae with 12 samples.

Results

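Budding yeast cells that sense a partner's pheromone stop dividing and prepare to mate. The measurements below concern 36 genes for enzymes of glycolysis, alcoholic fermentation, acetate and glycerol formation and gluconeogenesis, chosen by gene ID from the 7126 genes listed in each file of an RNA-seq study of Saccharomyces cerevisiae. All 36 had values above 0 in all 12 libraries and passed the filter on low values used for testing, a mean FPKM (fragments scaled by transcript length and by the library's mapped fragments) of at least 1, as did 6608 of the 7126 genes. There were 4 groups of 3 biological replicates. MATa cells (strain MP 384) and MATα-playing-a cells (strain LBHY29; a MATα strain by the series' description) were grown to log phase at 30 °C in YPD, a rich glucose medium, with bovine serum albumin. An unstimulated aliquot was taken from the culture, 10 nM α-factor, the pheromone that α cells secrete and a cells sense, was then added to what was left, and the stimulated aliquot was taken 2 h later. The labels list no alleles for either strain. Because no untreated aliquot of 2 h is among the 12 libraries, the effect of α-factor and that of 2 further h of growth in the same medium cannot be told apart, and "response" below means the difference between these aliquots.

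Glycolysis splits glucose into pyruvate, and fermentation turns pyruvate into ethanol by way of acetaldehyde, which regenerates the cofactor that glycolysis uses up. Many steps have several isoenzymes in yeast, encoded by paralogous genes: usually 1 abundant form that is used during growth on glucose and minor forms that are known to be made when glucose is scarce or under stress. Aldehyde dehydrogenases and acetyl-CoA synthetases carry acetaldehyde to acetyl-CoA, glycerol-3-phosphate dehydrogenases lead to glycerol, and 2 enzymes, Fbp1 and Pck1, run the irreversible steps of glycolysis backwards to make glucose.

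Several weakly transcribed isoenzyme genes rose several-fold on stimulation in both strains, and the highly transcribed genes of glycolysis changed little or fell. As in any bulk RNA measurement, fewer cells that express a gene and less RNA per cell cannot be told apart. In MATa cells 14 of the 36 genes rose, 7 fell and 15 did not pass the test (limma on log2(FPKM + 1), Benjamini-Hochberg adjusted p below 0.05 over all 6608 genes tested). Of all tested genes 28.5% rose and 38.1% fell in that comparison. In MATα-playing-a cells 13 rose, 15 fell and 8 did not pass, against 29.8% and 39.1% of all tested genes. At 2-fold or more, 10 of the 36 rose in MATa cells and 9 in MATα-playing-a cells, against 9.78% and 11.2% of all tested genes, and none fell that far in either strain, where 7.55% of all tested genes did in each. The median log2 change of the 36 genes was 0.08 in MATa and -0.02 in MATα-playing-a cells, and over all tested genes it was -0.09 and -0.10. Leaving out single libraries moved the members' median between 0.03 and 0.14 in MATa and between -0.08 and 0.03 in MATα-playing-a cells, so its sign in the latter strain depended on single libraries.

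The small falls depended on how the libraries were put on 1 scale, because summed FPKM was lower in every stimulated library than in every unstimulated one. When each library was rescaled to the same summed FPKM, 21 genes rose and 1 fell in MATa cells and in MATα-playing-a cells 16 rose and 8 fell. Of all 6610 genes tested on that scale, 2860 rose and 1444 fell in MATa and 2584 and 1765 in MATα-playing-a cells. This rescaling moved the median of all tested genes to 0.19 and 0.10 and that of the 36 genes to 0.37 and 0.19. Quantile normalization gave 20 rising and 3 falling genes in MATa and 18 and 7 in MATα-playing-a cells, with medians of the 36 genes of 0.42 and 0.24. Of all 6608 genes tested, it gave 1880 rising and 2405 falling in MATa and 1906 and 2595 in MATα-playing-a cells. Rescaling by median ratios, which brought the median of all genes to within 0.01 of 0, gave 16 and 6, and 15 and 13. Among all 6607 genes tested it gave 2173 and 2159, and 2266 and 2206. Of the 14 genes that rose in MATa cells, 13 kept their call under all 23 alternatives tried, as did 10 of the 13 that rose in MATα-playing-a cells. Of those that fell, 1 of 7 did in MATa cells, ADH4, and 5 of 15 in MATα-playing-a cells, PFK2, ENO2, ADH2, ADH4 and GPD2. The other falls lost their call in at least 1 alternative, mostly where libraries were put on another scale.

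Across both strains 12 genes rose in both, 7 fell in both, 6 changed in neither and none changed in opposite directions. The shares of all tested genes that did so are not at hand, so these counts are no result about the 36 by themselves. HXK1, GLK1, PYK2, PDC6, ALD2, ALD3, ALD4, GPD1 and PCK1 rose at least 2-fold in each strain, and ACS1, ADH5 and TDH1 rose in both by less in at least 1 of them. PFK2, FBA1, TPI1, ENO2, ADH1, ADH4 and GPD2 fell in both as scaled by the authors, and of these ADH4 alone kept both calls under every alternative. As scaled by the authors and without a block, ALD6 and GPM1 passed the test in MATa cells only, and HXK2, PFK1, TDH2, TDH3, PGK1, CDC19, ADH2, ALD5 and ACS2 in MATα-playing-a cells only. A call in 1 strain alone is no difference between strains: the test of that difference, given further on, called none of the 36.

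**Figure D1:**
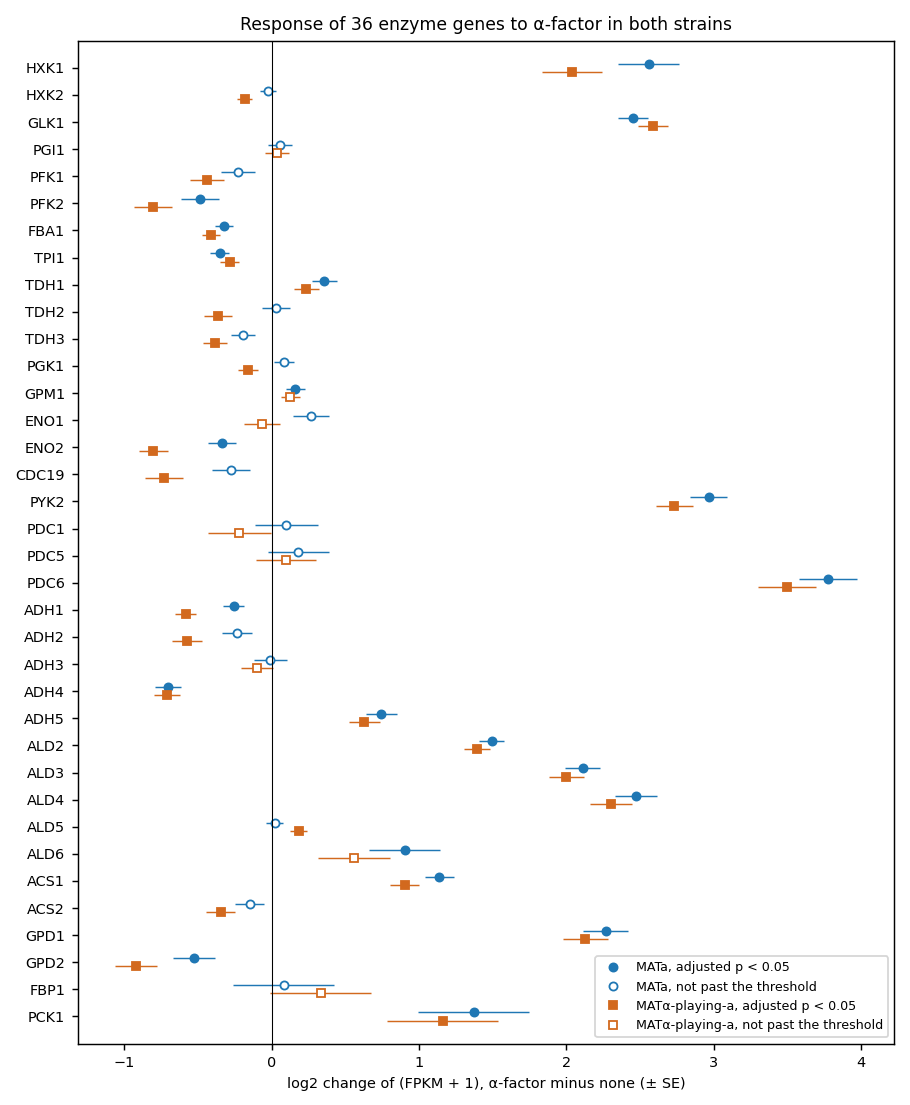
Log2 change of (FPKM + 1) between stimulated and unstimulated libraries for each of the 36 genes (vertical axis), with the standard error as a bar; circles are MATa and squares MATα-playing-a cells, filled where the adjusted p was below 0.05. PDC6, PYK2, GLK1, HXK1, ALD4, GPD1 and ALD3 lie at 2 or above in both strains, and no gene lies below -1.

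Hexose phosphorylation, the entry step of glycolysis, showed the pattern most plainly. HXK2 (YGL253W, chromosome VII 23935 to 25395 in the files' coordinates) encodes the main hexokinase of cells on glucose, which also takes part in glucose repression. HXK1 (YFR053C, chromosome VI 253592 to 255049) encodes the second hexokinase and GLK1 (YCL040W, chromosome III 50838 to 52340) glucokinase, both known to be repressed by glucose. GLK1 stood at 273, 314 and 247 FPKM in the unstimulated and 1500.1, 1569.5 and 1487 FPKM in the stimulated MATa libraries, and at 285, 235 and 220.2 and 1511, 1467 and 1453 FPKM in those of MATα-playing-a cells. Every stimulated library lay far above every unstimulated one. GLK1 thus rose 5.47-fold in MATa cells (log2 change 2.45 ± 0.10, adjusted p = 4.05e-09, the error being a standard error) and 6.01-fold in MATα-playing-a cells (log2 change 2.59 ± 0.10, adjusted p = 2.53e-09).

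HXK1 read 258, 338 and 195 FPKM without and 1517, 1563 and 1481 FPKM with α-factor in MATa cells, where it rose 5.89-fold (log2 change 2.56 ± 0.21, adjusted p = 8.16e-07). MATα-playing-a cells gave 335, 194 and 241 and then 1109, 924 and 1063 FPKM, a 4.10-fold rise (log2 change 2.04 ± 0.21, adjusted p = 4.81e-06). The groups did not overlap in either strain. HXK2 read 5734, 5447 and 5195 FPKM and 5196, 5365 and 5528 FPKM in MATa cells, which overlap (log2 change -0.02 ± 0.05, adjusted p = 0.69, but 0.27 with an adjusted p of 0.0015 at equal summed FPKM), and 5380.0, 5261 and 5246 and 4589, 4681 and 4715 FPKM in MATα-playing-a cells, a small fall (log2 change -0.18 ± 0.05, adjusted p = 0.00797) that turned to 0.02 at equal summed FPKM. HXK2's share of the FPKM of the 3 genes went from 91.0% ± 1.50 to 63.8% ± 1.08 in MATa and from 91.4% ± 1.48 to 65.0% ± 1.28 in MATα-playing-a cells (mean ± SD, n = 3). HXK1 overlaps the listed gene YFR052C-A and GLK1 overlaps YCL042W, and whether reads were counted by strand is not given in the sources used here.

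Stretches just before 5 genes are printed to show both cases among the 9 genes that rose at least 2-fold in both strains: GLK1, PYK2 and ALD4 hold the letters AGGGG, the core of the stress response element that the factors Msn2 and Msn4 are known to bind, and PDC6, which rose most, holds none. HXK2, which did not rise as scaled by the authors, holds none either. Each is 300 bases, from 250 before to 50 after the first base of the coding sequence, read 5′ to 3′ on the gene's strand from the RefSeq sequence of the R64 genome, in which all 36 genes have the coordinates the files give. Capitals mark AGGGG or, for the other strand, CCCCT.
GLK1, chrIII:50588-50887, plus strand: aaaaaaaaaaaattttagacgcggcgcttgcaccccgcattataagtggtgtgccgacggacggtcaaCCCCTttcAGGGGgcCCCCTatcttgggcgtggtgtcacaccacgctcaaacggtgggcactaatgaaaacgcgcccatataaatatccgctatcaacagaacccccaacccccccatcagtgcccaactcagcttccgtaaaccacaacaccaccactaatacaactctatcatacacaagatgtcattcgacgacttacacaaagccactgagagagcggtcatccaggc
PYK2, chrXV:986413-986712, minus strand: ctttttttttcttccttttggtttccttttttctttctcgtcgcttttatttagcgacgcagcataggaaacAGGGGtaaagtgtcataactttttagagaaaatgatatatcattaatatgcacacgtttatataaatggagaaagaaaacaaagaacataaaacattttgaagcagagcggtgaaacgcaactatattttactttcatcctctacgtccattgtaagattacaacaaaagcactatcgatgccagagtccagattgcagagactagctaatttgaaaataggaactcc
ALD4, chrXV:1039590-1039889, plus strand: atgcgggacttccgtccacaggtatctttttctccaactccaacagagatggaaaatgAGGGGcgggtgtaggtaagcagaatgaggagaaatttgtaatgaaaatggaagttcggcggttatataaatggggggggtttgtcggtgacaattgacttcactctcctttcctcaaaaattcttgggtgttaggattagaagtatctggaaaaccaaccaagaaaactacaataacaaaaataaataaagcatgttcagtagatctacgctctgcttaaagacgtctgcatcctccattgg
PDC6, chrVII:652932-653231, minus strand: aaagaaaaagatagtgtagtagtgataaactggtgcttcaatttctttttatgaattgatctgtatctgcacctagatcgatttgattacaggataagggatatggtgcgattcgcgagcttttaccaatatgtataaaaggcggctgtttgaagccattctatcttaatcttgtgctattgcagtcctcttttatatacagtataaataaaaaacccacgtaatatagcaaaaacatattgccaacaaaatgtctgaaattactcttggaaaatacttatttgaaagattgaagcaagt
HXK2, chrVII:23685-23984, plus strand: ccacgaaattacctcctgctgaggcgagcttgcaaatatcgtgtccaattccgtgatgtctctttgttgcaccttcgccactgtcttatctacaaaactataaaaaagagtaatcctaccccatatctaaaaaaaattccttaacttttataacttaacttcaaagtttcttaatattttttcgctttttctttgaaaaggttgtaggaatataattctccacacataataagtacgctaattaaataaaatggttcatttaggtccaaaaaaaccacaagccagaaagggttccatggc

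GLK1 held 3 matches, starting 182, 174 and 167 bases before the gene, PYK2 1 at 178 bases and ALD4 1 at 192 bases. AGGGG, on either strand, was present in 12 of the 36 windows and in 21.6% of the same windows of 6001 genes. It was in 7 of the 12 genes that rose in both strains, although the match of PCK1 starts inside the coding sequence, and in 1 of the 7 that fell in both, GPD2. HXK1, ALD2 and PDC6 rose at least 2-fold in both strains with no match in the window, and TDH3, PGK1 and CDC19 hold a match and, as scaled by the authors, rose in neither strain. Over the 500 bases before each gene, a window added after the data were seen, the counts were 9 of 12 and 3 of 7, against 34.1% of all genes. TGAAACA, the pheromone response element bound by Ste12, was found in 1 of the 36 windows, that of PFK1, and in 7.5% of all. CTTCC, the core of the site of the glycolytic activator Gcr1, was found in 20 of 36 and in 46.4% of all windows, with 7 of the 12 rising and 6 of the 7 falling genes among them. Such a match is a run of letters and was not tested as a binding site.

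In upper glycolysis the genes fell or did not pass the test, PFK2 by the most. PGI1 (YBR196C), phosphoglucose isomerase, ranged from 5214 to 6528 FPKM over all 12 libraries with overlapping groups, but it was called higher in both strains at equal summed FPKM (0.35, adjusted p = 0.00387; 0.24, adjusted p = 0.0301) and under quantile normalization. Phosphofructokinase, the main control point of glycolysis, is an octamer of the α subunit Pfk1 and the β subunit Pfk2. PFK2 (YMR205C) read 1886, 2577 and 1929.9 FPKM without and 1542, 1399 and 1578 FPKM with α-factor in MATa cells, and 2010.4, 2424 and 2267 and 1310.1, 1117 and 1414 FPKM in MATα-playing-a cells. It fell in both (log2 change -0.49 ± 0.13, adjusted p = 0.00541; log2 change -0.81 ± 0.13, adjusted p = 0.000165), although the MATa call was lost at equal summed FPKM, where its adjusted p was 0.213. PFK1 (YGR240C) read 2289.5, 2952 and 2298 then 2163, 1955 and 2277 FPKM in MATa cells (log2 change -0.23 ± 0.12, adjusted p = 0.101) and 2277, 2689.6 and 2602 then 1855, 1661 and 2063 FPKM in MATα-playing-a cells (log2 change -0.44 ± 0.12, adjusted p = 0.00527, lost at equal summed FPKM with 0.101). The PFK1 to PFK2 ratio rose 1.24-fold over both strains. Aldolase (FBA1, YKL060C) and triose phosphate isomerase (TPI1, YDR050C) fell in both strains by 0.29 to 0.41 on the log2 scale, but under quantile normalization their log2 changes were positive, at 0.12 to 0.13, and not called. At equal summed FPKM the fall of FBA1 was called in MATα-playing-a cells only and that of TPI1 in neither strain.

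In lower glycolysis each step had 1 dominant gene. TDH3 (YGR192C), the main glyceraldehyde-3-phosphate dehydrogenase, was the highest of the 36 genes in each group, at 80409.6 ± 6478, 70189.7 ± 2077, 81890.5 ± 3025 and 62902 ± 5586 FPKM in unstimulated and stimulated MATa and unstimulated and stimulated MATα-playing-a cells. It fell in MATα-playing-a cells (log2 change -0.38 ± 0.08, adjusted p = 0.00124) and missed the threshold in MATa cells (log2 change -0.19 ± 0.08, adjusted p = 0.0521), where 6 of the 23 alternatives called it. The MATα-playing-a call was lost at equal summed FPKM (-0.18, adjusted p = 0.0555) and under quantile normalization, where the change was 0. Quantile normalization sets a value by its rank in the library, so it cannot show a fall in a gene that keeps its rank. TDH1 (YJL052W), the least transcribed of the 3 and known to be made as cells leave growth, read 2484, 3125 and 2761 FPKM and then 3539, 3872 and 3288 FPKM in MATa cells (log2 change 0.36 ± 0.09, adjusted p = 0.0033), and 2609.7, 2866 and 2846 and then 3284, 3232 and 3263 FPKM in MATα-playing-a cells (log2 change 0.23 ± 0.09, adjusted p = 0.0304). The second call was lost in 4 of the 23 alternatives, with an adjusted p of up to 0.105. TDH2 (YJR009C) overlapped between groups in MATa cells, at 25440.1 ± 3529 and 25776 ± 571 FPKM, but was called higher at equal summed FPKM (0.32, adjusted p = 0.0112). It fell in MATα-playing-a cells from 25215 ± 1762 to 19603 ± 1193 FPKM (log2 change -0.36 ± 0.09, adjusted p = 0.00492), a change of 0.03 under quantile normalization and not called at equal summed FPKM either (-0.16, adjusted p = 0.164). The coding sequences of TDH2 and TDH3 are 95.8% identical, with up to 173 identical bases in a row, so their single values depend on how shared reads were assigned.

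Phosphoglycerate kinase (PGK1, YCR012W) stood between 16055 and 20532 FPKM in all libraries, and phosphoglycerate mutase (GPM1, YKL152C) between 26705 and 34808 FPKM. PGK1 overlaps the listed gene YCR013C and GPM1 overlaps YKL153W. GPM1's small rise in MATa cells (log2 change 0.16 ± 0.06, adjusted p = 0.0446) was lost in 11 of 23 alternatives, and in MATα-playing-a cells it was called higher under all 3 rescalings. PGK1's small fall in MATα-playing-a cells (log2 change -0.16 ± 0.07, adjusted p = 0.0474) was lost or turned in 15 of 23, to 0.04 at equal summed FPKM and 0.27 under quantile normalization. In MATa cells PGK1 was called higher under all 3 rescalings, by 0.17 to 0.58 on the log2 scale. Of the enolases, ENO2 (YHR174W), the form made on glucose, read 39966, 47596 and 40343 FPKM and 33333, 31613 and 36049 FPKM in MATa cells (log2 change -0.34 ± 0.10, adjusted p = 0.00959), a fall that was not called at equal summed FPKM (-0.05, adjusted p = 0.718) and of opposite sign under quantile normalization (0.16). In MATα-playing-a cells it read 44989.6, 48740.0 and 45162 and 27846, 23149.5 and 28798 FPKM (log2 change -0.81 ± 0.10, adjusted p = 2.08e-05), a fall called under each of the 23 alternatives. ENO1 (YGR254W), known for its use in gluconeogenic growth, overlapped between groups in both strains and was not called. In MATa cells it was called higher under all 3 rescalings, by 0.36 to 0.69 on the log2 scale, and without unstimulated replicate 2 (0.43, adjusted p = 0.00169), and in MATα-playing-a cells under quantile normalization (0.27, adjusted p = 0.0485). Its share of enolase FPKM rose from 15.1% ± 1.22 to 21.3% ± 1.74 and from 15.3% ± 0.402 to 23.2% ± 0.343. ENO1 and ENO2 are 94.8% identical in coding sequence, which makes this share uncertain as well.

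Pyruvate kinase closes glycolysis. Its main form CDC19 (YAL038W) read 14799, 20024 and 16225 FPKM and then 13476, 13245 and 15168 FPKM in MATa cells, which overlap (log2 change -0.28 ± 0.13, adjusted p = 0.0797), and 18811, 22254 and 19318 then 12871, 10210.4 and 13375 FPKM in MATα-playing-a cells, where it fell (log2 change -0.73 ± 0.13, adjusted p = 0.000364). That call was lost under quantile normalization (-0.30, adjusted p = 0.0947), and the MATa one was gained without unstimulated replicate 1 (-0.37, adjusted p = 0.0343). PYK2 (YOR347C, chromosome XV 984942 to 986462), a second pyruvate kinase that is known not to need fructose-1,6-bisphosphate and to be repressed by glucose, went the other way. It read 51.1, 48.7 and 44.9 FPKM and then 406, 394 and 351 FPKM in MATa cells, a 7.81-fold rise (log2 change 2.97 ± 0.13, adjusted p = 5.63e-09). MATα-playing-a cells gave 73.5, 59.8 and 48.0 and then 406, 411 and 387 FPKM, a 6.64-fold rise (log2 change 2.73 ± 0.13, adjusted p = 1.13e-08). No stimulated library came near an unstimulated one. The rise left PYK2 a minor form all the same, at 2.69% ± 0.372 and 3.25% ± 0.553 of pyruvate kinase FPKM in stimulated MATa and MATα-playing-a cells, up from 0.288% ± 0.0518 and 0.302% ± 0.0764. CDC19 overlaps the listed gene YAL037C-B.

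**Figure D2:**
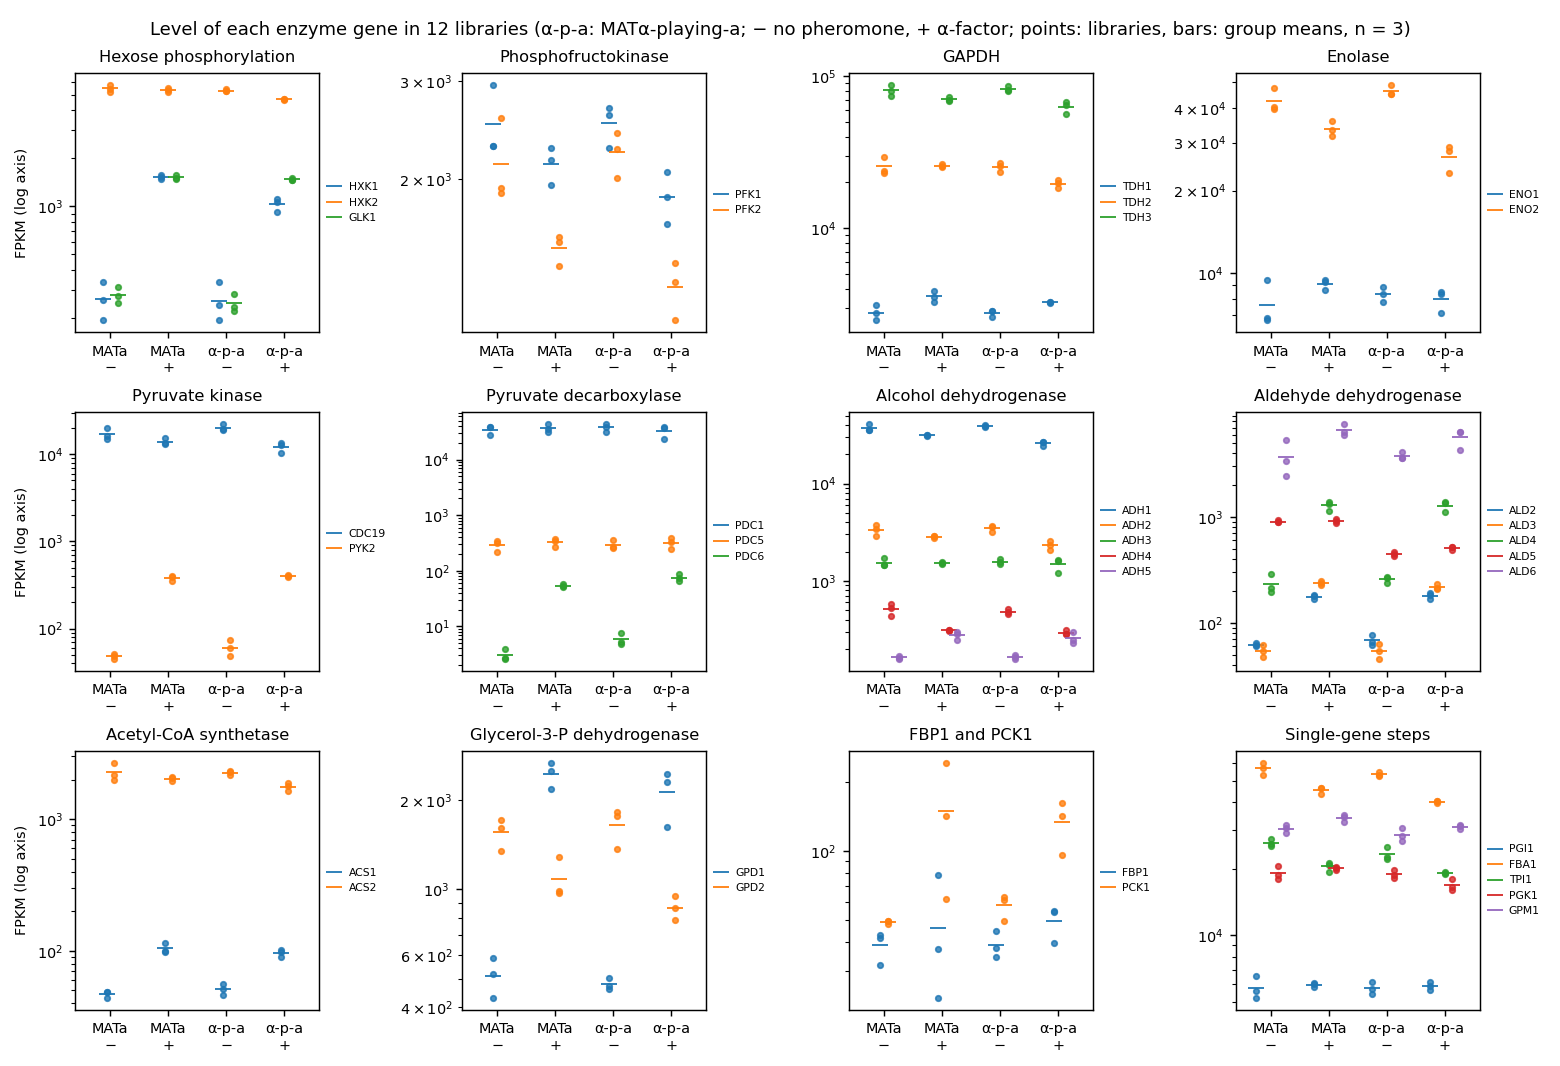
FPKM on a log axis of each of the 36 genes, by enzymatic step, in MATa and MATα-playing-a (α-p-a) cells without (-) and with (+) α-factor; points are libraries and bars group means. GPD1 and GPD2 exchange places, as do ALD4 and ALD5 and ALD2 and ALD3, whereas PYK2 and PDC6 rise far below CDC19 and PDC1.

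Pyruvate decarboxylase, which commits pyruvate to ethanol, had the largest relative change of all 36 genes in its rarest form. PDC6 (YGR087C, chromosome VII 651290 to 652981), a minor form known to be made under sulfur limitation, read 2.69, 3.89 and 2.58 FPKM without and 52.3, 58.5 and 51.7 FPKM with α-factor in MATa cells. In MATα-playing-a cells it read 4.80, 7.54 and 5.20 and 65.8, 87.0 and 74.2 FPKM. It rose 13.7-fold (log2 change 3.78 ± 0.20, adjusted p = 2.73e-08) and 11.3-fold (log2 change 3.50 ± 0.20, adjusted p = 4.8e-08) on the scale of FPKM + 1, which understates the change of low genes. Even so it made up 0.147% ± 0.0266 and 0.244% ± 0.108 of the step's FPKM. PDC1 (YLR044C), the main form, ranged from 23330 to 43936 FPKM over the 12 libraries, and PDC5 (YLR134W), the form that can replace it, from 221 to 389 FPKM; neither passed the test in either strain, but PDC1 was called higher in MATa cells under quantile normalization (0.66, adjusted p = 0.011). Within groups PDC1 and PDC5 had SDs of up to 8530 and 73.3 FPKM. Their coding sequences are 87.2% identical.

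Alcohol dehydrogenase reduces acetaldehyde to ethanol, mostly through the cytosolic enzyme Adh1. ADH1 (YOL086C) read 35188, 41118 and 35885 FPKM and then 31732, 30631 and 31302 FPKM in MATa cells (log2 change -0.26 ± 0.07, adjusted p = 0.00783), a fall that was not called under median ratios (adjusted p = 0.0614) and of opposite sign under quantile normalization and at equal summed FPKM (0.18 and 0.03). In MATα-playing-a cells it read 38844, 37959.5 and 40419 and 27011, 24238 and 26963 FPKM (log2 change -0.59 ± 0.07, adjusted p = 2.24e-05), a fall that all but vanished under quantile normalization (-0.03, adjusted p = 0.743). ADH4 (YGL256W), an alcohol dehydrogenase unrelated in sequence to the others, was the 1 gene whose fall was called under every alternative in both strains. It read 439, 522 and 572 FPKM and then 312, 309 and 315 FPKM in MATa cells (log2 change -0.70 ± 0.09, adjusted p = 3.04e-05), and 461, 508 and 475 then 315, 282 and 285 FPKM in MATα-playing-a cells (log2 change -0.71 ± 0.09, adjusted p = 2.7e-05). ADH5 (YBR145W) rose from 163 ± 6.49 to 275 ± 27.1 FPKM and from 166 ± 8.45 to 258 ± 38.0 FPKM (log2 change 0.74 ± 0.10, adjusted p = 6.48e-05; log2 change 0.63 ± 0.10, adjusted p = 0.000232).

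ADH2 (YMR303C), the glucose-repressed enzyme that oxidizes ethanol, did not rise. It read 2926, 3775 and 3393 FPKM and then 2767, 2897 and 2879 FPKM in MATa cells (log2 change -0.23 ± 0.10, adjusted p = 0.062, called lower in 3 of the 23 alternatives), and fell in MATα-playing-a cells from 3666, 3174 and 3569 to 2586, 2089.6 and 2321 FPKM (log2 change -0.58 ± 0.10, adjusted p = 0.000366). ADH2 and ADH1 share 88.8% of their coding bases and a run of 189 identical ones. The values of ADH2, and so its fall, therefore depend on how shared reads were assigned. ADH2 stayed at 7.65% to 7.87% of alcohol dehydrogenase FPKM in the 4 groups on average. The ADH2 to ADH1 ratio did not pass the test, with a fold of 1.01 and an exact permutation p of 0.7. The mitochondrial form ADH3 (YMR083W) read 1450 to 1715 FPKM in MATa and 1216 to 1693 FPKM in MATα-playing-a libraries and passed the test in neither strain, although at equal summed FPKM it was called higher in MATa cells (0.28, adjusted p = 0.0442).

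Aldehyde dehydrogenase was the step with the most rising genes, 4 of 5 in each strain. ALD4 (YOR374W, chromosome XV 1039840 to 1041399), known as the major mitochondrial aldehyde dehydrogenase, read 214, 196 and 291 FPKM and then 1141, 1377 and 1335 FPKM in MATa cells (log2 change 2.47 ± 0.14, adjusted p = 5.75e-08). MATα-playing-a cells gave 272, 264 and 238 and then 1388, 1109 and 1345 FPKM (log2 change 2.30 ± 0.14, adjusted p = 1e-07). Without α-factor ALD5, also mitochondrial, lay above ALD4, at means of 906 FPKM in MATa and 446 FPKM in MATα-playing-a cells. With α-factor it lay below ALD4, at 919 and 507 FPKM. The tandem cytosolic genes ALD3 (YMR169C) and ALD2 (YMR170C), adjacent on chromosome XIII and known to respond to stress, rose as well. ALD3 read 54.7, 47.1 and 61.7 FPKM and 227, 248 and 238 FPKM in MATa and 62.6, 53.7 and 45.5 and 232, 209 and 211 FPKM in MATα-playing-a cells (log2 change 2.11 ± 0.12, adjusted p = 5.53e-08; log2 change 2.00 ± 0.12, adjusted p = 8.36e-08). ALD2 read 60.6, 61.4 and 64.4 FPKM and 168, 180.0 and 182 FPKM in MATa and 76.6, 66.4 and 62.3 and 192, 168 and 183 FPKM in MATα-playing-a cells (log2 change 1.49 ± 0.09, adjusted p = 5.51e-08; log2 change 1.39 ± 0.09, adjusted p = 9.46e-08). Within this pair the order turned: ALD2 was above ALD3 on average in the unstimulated groups and below it in the stimulated ones, with a ratio 1.53-fold lower. The pair is 91.8% identical in coding sequence, with up to 329 identical bases in a row, so the split between them is uncertain.

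ALD6 (YPL061W), the main cytosolic form on glucose, was the highest of the 5 in every group. It read 3349.7, 2442 and 5329 FPKM and then 5976, 6284 and 7581 FPKM in MATa cells (log2 change 0.90 ± 0.24, adjusted p = 0.00641), with the widest spread in the first group, and 3617, 3591 and 4114 then 6337, 4260.5 and 6326 FPKM in MATα-playing-a cells (log2 change 0.56 ± 0.24, adjusted p = 0.06). In the latter strain 9 of the 23 alternatives called it higher, among them all 3 rescalings and, at the same change, the fit with the replicate number as a block (adjusted p = 0.0155) and that with a block for strain and number (adjusted p = 0.021). Acetyl-CoA synthetase 1 (ACS1, YAL054C), the glucose-repressed form, read 48.2, 48.6 and 43.8 FPKM and then 115, 100.5 and 98.4 FPKM in MATa cells (log2 change 1.14 ± 0.10, adjusted p = 1.32e-06). The other strain gave 51.1, 55.9 and 46.2 and then 89.2, 97.5 and 102 FPKM (log2 change 0.90 ± 0.10, adjusted p = 8.13e-06). ACS2 (YLR153C), the form used on glucose, read 2276 ± 365 and 2034 ± 74.0 FPKM in MATa cells, with overlapping groups and a fall called without unstimulated replicate 3 alone (-0.25, adjusted p = 0.0393), and fell from 2246 ± 73.4 to 1767 ± 115 FPKM in MATα-playing-a cells (log2 change -0.35 ± 0.10, adjusted p = 0.00792, lost at equal summed FPKM with 0.233). It kept at least 94.4% of the step's FPKM in every library.

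Glycerol-3-phosphate dehydrogenase was the 1 step of which the leading gene changed. Gpd1 is known as the form induced by osmotic stress and Gpd2 as the one that balances redox state without oxygen. GPD1 (YDL022W, chromosome IV 411825 to 413000) read 430.5, 586 and 519 FPKM and then 2178, 2518 and 2677 FPKM in MATa cells (log2 change 2.27 ± 0.15, adjusted p = 2.13e-07). The other strain gave 504, 463 and 473 and then 2455, 1629 and 2310.5 FPKM (log2 change 2.13 ± 0.15, adjusted p = 3.47e-07). GPD2 (YOL059W) read 1344, 1721 and 1609 FPKM and then 975, 991 and 1285 FPKM in MATa cells (log2 change -0.53 ± 0.14, adjusted p = 0.00666), and 1367, 1825 and 1766 then 865, 787 and 953 FPKM in MATα-playing-a cells (log2 change -0.92 ± 0.14, adjusted p = 0.000144). GPD2 was the higher gene in all 6 unstimulated libraries and GPD1 in all 6 stimulated ones. GPD1's share of the pair went from 24.7% ± 0.622 to 69.5% ± 2.13 and from 22.8% ± 3.64 to 70.7% ± 3.26. GPD2's fall in MATa cells was not called at equal summed FPKM, and GPD1 overlaps the listed gene YDL023C.

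The gluconeogenic genes were low and uneven. PCK1 (YKR097W), phosphoenolpyruvate carboxykinase, read 49.6, 48.2 and 49.7 FPKM in unstimulated and 142, 242 and 61.8 FPKM in stimulated MATa libraries (log2 change 1.37 ± 0.38, adjusted p = 0.00719), and 61.2, 62.9 and 49.6 then 142, 161 and 95.9 FPKM in those of MATα-playing-a cells (log2 change 1.16 ± 0.38, adjusted p = 0.0169). The stimulated MATa libraries differed widely from each other, and all 3 lay above the unstimulated ones. The MATα-playing-a call was lost without unstimulated replicate 3 (adjusted p = 0.0555) or without stimulated replicate 2 (adjusted p = 0.0627). FBP1 (YLR377C), fructose-1,6-bisphosphatase, read 41.8, 31.7 and 43.1 FPKM and then 37.4, 78.5 and 22.9 FPKM in MATa cells and 44.5, 37.8 and 34.5 then 54.2, 54.9 and 39.6 FPKM in MATα-playing-a cells. Its groups overlapped and it passed the test in neither strain. In stimulated MATa cells PCK1, FBP1 and the glyoxylate cycle genes ICL1 and MLS1 ranked the libraries alike, with replicate 2 highest and replicate 3 lowest: ICL1 read 279, 368 and 174 and MLS1 71.6, 131 and 46.3 FPKM.

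Isoenzyme ratios of plain FPKM are free of any factor common to a library, since both genes are read in the same one. With the added 1 this holds less well for low genes such as PDC6, at 2.58 to 7.54 FPKM without α-factor. The log2 ratio of (FPKM + 1) was compared for 18 pairs between stimulated and unstimulated libraries within each strain, with an exact 2-sided permutation test over 400 arrangements whose smallest p is 0.005, adjusted over the 18 pairs. The ratio changed in 15 pairs, each at that smallest p and with an adjusted p of 0.006. No share is at hand for ratios of other gene pairs, so these 15 are no result about isoenzymes by themselves. Several pairs share a gene, and many set a low gene over a high one. By unstimulated level in the other strain, 38.6% and 38% of all tested genes under 100 FPKM rose in MATa and MATα-playing-a cells. Over 10000 FPKM 92.7% and 92.6% fell. The first-named gene gained in 12 of the 15 pairs, among them PFK1 on PFK2. PDC6 gained 13.0-fold on PDC1, PYK2 10.2-fold on CDC19, GPD1 7.58-fold on GPD2, GLK1 6.16-fold and HXK1 5.29-fold on HXK2, ALD4 3.15-fold on ALD6, ACS1 2.41-fold on ACS2, ADH5 2.15-fold on ADH1, ENO1 1.59-fold on ENO2, TDH1 by 0.58 on the log2 scale on TDH3 and ADH3 1.29-fold on ADH1. ADH4 to ADH1, ALD2 to ALD3 and ALD5 to ALD4 fell, by 0.29, 0.61 and 2.29 on the log2 scale. TDH2 to TDH3, PDC5 to PDC1 and ADH2 to ADH1 did not pass, with adjusted p of 0.0582, 0.0506 and 0.7. Their coding sequences are 95.8%, 87.2% and 88.8% identical. Among the called pairs are ones as similar, ENO1 and ENO2 with 94.8%, ALD2 and ALD3 with 91.8% and TDH1 and TDH3 with 88.9%. Other called pairs are less so, down to 48.2% for ADH4 and ADH1. A link between identity and the ratio calls was not tested.

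**Figure D3:**
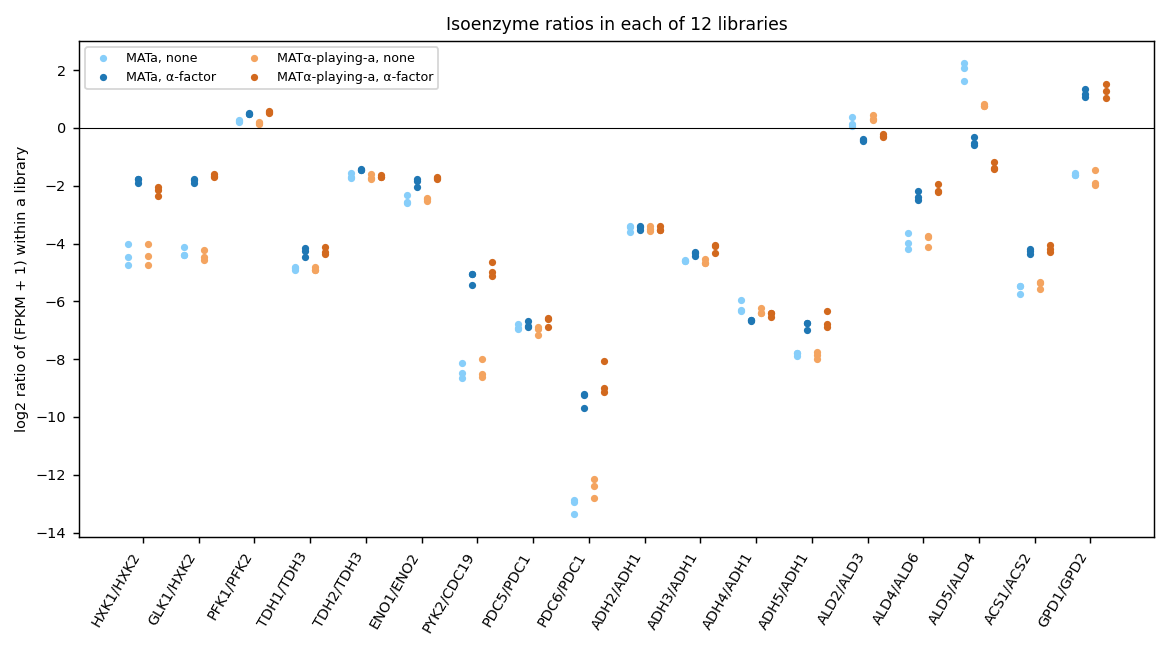
Log2 ratio of (FPKM + 1) of the 2 genes named on the horizontal axis, 1 point a library; light points are unstimulated and dark points stimulated, blue MATa and orange MATα-playing-a. Dark points lie above light ones for PDC6/PDC1 and PYK2/CDC19, and GPD1/GPD2, ALD2/ALD3 and ALD5/ALD4 cross 0.

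Few of the 36 genes differed in level between strains. Without α-factor 1 of 36 was called, ALD5, which was lower in MATα-playing-a cells, and none was higher, against 0.605% and 0.348% of all tested genes (at an unadjusted p below 0.05, 2 were higher and 2 lower). With α-factor the same gene was the 1 called lower and none was called higher, against 0.651% and 1.56% (1 and 9 unadjusted). The shares of all genes use adjusted p. None at an unadjusted p is at hand, so the unadjusted counts are no result about these genes. ALD5 (YER073W, chromosome V 304030 to 305592), a mitochondrial aldehyde dehydrogenase, read 902, 927 and 888 FPKM without and 913, 967 and 876 FPKM with α-factor in MATa cells. It read 466, 449 and 424 and 518, 484 and 519.6 FPKM in MATα-playing-a cells, below every MATa library. Its small rise in the latter strain (log2 change 0.18 ± 0.06, adjusted p = 0.0161) was lost when any of 3 single libraries was left out, with an adjusted p of up to 0.0717, and at equal summed FPKM it was called higher in MATa cells as well (0.31, adjusted p = 0.00226). The difference was log2 difference -1.02 ± 0.06, adjusted p = 1.08e-06 without and log2 difference -0.86 ± 0.06, adjusted p = 4.47e-06 with α-factor. Of the genes next to it, VTC1 averaged 4231 ± 448 FPKM in unstimulated MATa and 5121 ± 87.2 FPKM in unstimulated MATα-playing-a cells. With α-factor it averaged 2762 ± 311 and 2962 ± 801 FPKM. RPS24A averaged 21244 ± 1015 and 18199 ± 1999 FPKM without and 14292 ± 246 and 14270 ± 746 FPKM with α-factor. No test of these neighbours is given here. The labels give no allele at this locus.

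Of the 18 ratios 2 differed between strains, PDC6 to PDC1, higher by 0.63 on the log2 scale in MATα-playing-a cells, and ALD5 to ALD4, lower by 1.02, each with an adjusted p of 0.045 in the exact permutation test. PDC6 itself was higher in all MATα-playing-a libraries than in all MATa libraries of the same treatment, by 0.75 and 0.47 on the log2 scale, with adjusted p of 0.159 and 0.388 in the limma fit. These ratio calls sit at the limit of the test and were lost with a pseudocount of 10 or when some single libraries were left out.

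The size of the response itself did not pass the test of a difference between strains for any of the 36 genes (limma; 0 called higher and 0 lower, 0 and 6 at an unadjusted p below 0.05), against 0.409% of all tested genes higher and 0.0757% lower. Here too the shares use adjusted p, so the unadjusted counts cannot be set against them. The signs were lopsided: the response was lower in MATα-playing-a than in MATa cells in 32 of 36 genes, with a median difference of -0.19 against 0.02 for all tested genes. ENO2 (log2 difference -0.47 ± 0.14, adjusted p = 0.252), ADH1 (log2 difference -0.33 ± 0.10, adjusted p = 0.277) and TDH2 (log2 difference -0.39 ± 0.13, adjusted p = 0.338) had the smallest p. Stimulated MATα-playing-a replicate 2 was the lowest of its group in 24 of 36 genes, and without it 28 of the 36 differences were negative, with a median of -0.14. Together the 36 genes took 6.22% ± 0.493 of summed FPKM in unstimulated and 7.08% ± 0.261 in stimulated MATa cells, and 6.71% ± 0.247 and 6.17% ± 0.493 in MATα-playing-a cells. In the latter strain the lowest unstimulated library had 6.56% and the highest stimulated one 6.55%.

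The response was related to the starting level. Taking each gene's level from the unstimulated libraries of the other strain, so that level and response share no library, Spearman's rho between level and response over the 36 genes was -0.61 for MATa and -0.69 for MATα-playing-a cells, and over all 6608 tested genes -0.29 and -0.25. This describes genes of 1 set of libraries, which share depth and scaling. Of the 7 members under 100 FPKM, 6 rose and none fell in each strain, where 38.6% and 38% of all genes at that level rose. Of the 10 members over 10000 FPKM, MATa cells had 1 rising and 4 falling and MATα-playing-a cells 8 falling and no rising genes, where 92.7% and 92.6% of all genes of that level fell.

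**Figure D4:**
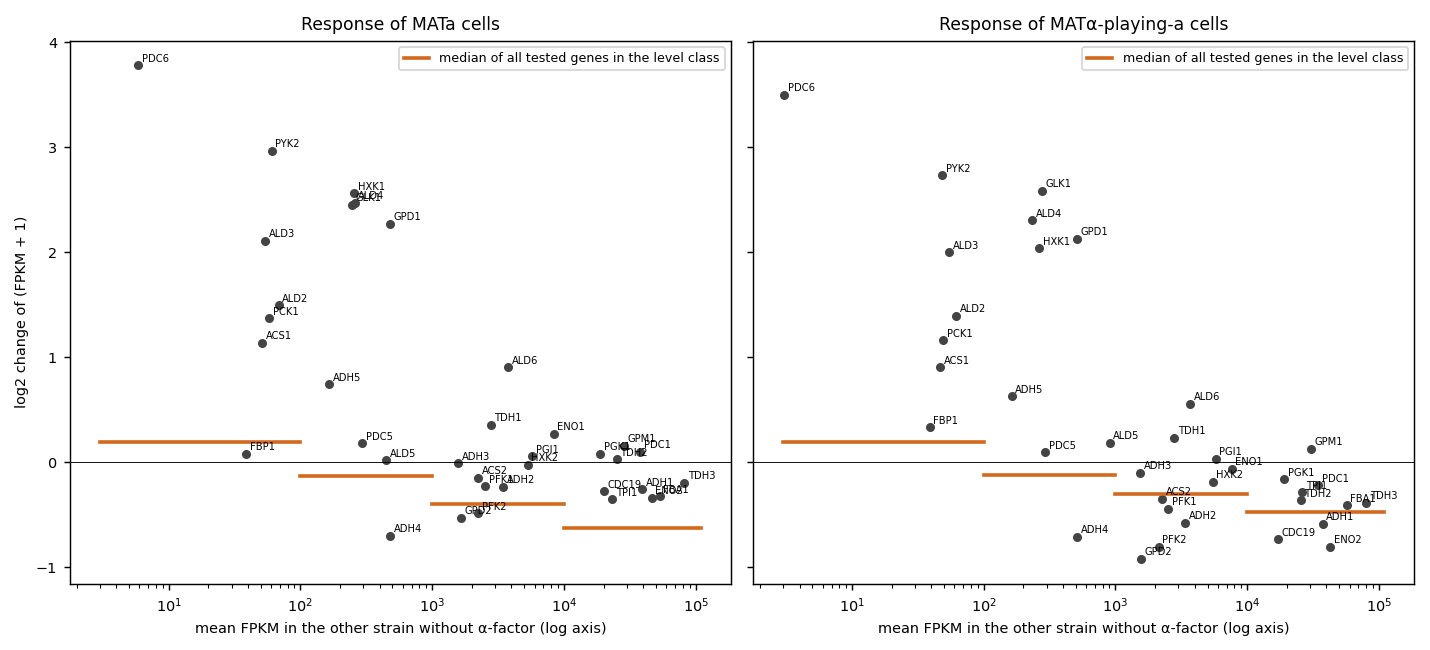
Log2 change on stimulation (vertical axis) against the mean FPKM in unstimulated libraries of the other strain (log axis) for the 36 genes, MATa left and MATα-playing-a right; orange lines mark the median over all tested genes in each of 4 classes of level. Members under 1000 FPKM reach 3.78 and 3.50 (PDC6), and of the 10 members over 10000 FPKM all lie above the line in MATa and 7 in MATα-playing-a cells.

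A further list of 60 genes of the surrounding metabolism put these enzymes in context. In MATa cells 30 rose, 15 fell and 15 did not pass, and in MATα-playing-a cells 31, 17 and 12, against the shares of all tested genes given above. All 4 genes of the glyoxylate cycle, which bypasses the carbon-losing steps of the citrate cycle, rose in both strains. Minor isoforms rose in 7 of 9 cases in each strain, whereas GPM3 fell in both (log2 change -0.36 ± 0.07, adjusted p = 0.000733; log2 change -0.50 ± 0.07, adjusted p = 6.95e-05). Among those that rose was GPM2, a homologue of phosphoglycerate mutase, with 16.6, 14.8 and 19.6 FPKM before and 120.3, 129.7 and 126 FPKM after stimulation of MATa cells (log2 change 2.82 ± 0.17, adjusted p = 8.56e-08; log2 change 2.84 ± 0.17, adjusted p = 8.03e-08 in MATα-playing-a cells). ERR1 and ERR2, counted among them, have the same value in every library, so their reads cannot be told apart. The largest rise was that of NQM1, a paralogue of the transaldolase TAL1, from 32.8, 26.8 and 45.8 to 835, 887 and 793 FPKM in MATa and from 37.5, 46.6 and 36.1 to 746, 952 and 821 FPKM in MATα-playing-a cells (log2 change 4.57 ± 0.17, adjusted p = 1.76e-09; log2 change 4.36 ± 0.17, adjusted p = 2.51e-09). TAL1 itself stood at 3991 ± 159 and 3368 ± 189 FPKM in MATa cells.

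At further steps of the list some pairs of forms moved apart and others did not. MPC3, a mitochondrial pyruvate carrier subunit known from respiratory growth, rose (log2 change 2.39 ± 0.25, adjusted p = 7.73e-06; log2 change 2.68 ± 0.25, adjusted p = 2.97e-06), while MPC2, its counterpart on glucose, did not pass the test in MATa cells (log2 change -0.09 ± 0.09, adjusted p = 0.419) and rose in MATα-playing-a cells from 2692 ± 119 to 3330.4 ± 326 FPKM (log2 change 0.30 ± 0.09, adjusted p = 0.0107). TKL2, the minor transketolase gene, rose in MATa cells only slightly, from 36.5 ± 4.83 to 50.6 ± 7.34 FPKM (log2 change 0.46 ± 0.13, adjusted p = 0.00937), and did not pass in MATα-playing-a cells (adjusted p = 0.437). The glycerol-3-phosphatase genes moved apart as GPD1 and GPD2 did: GPP2 rose from 452 ± 61.0 to 1710.0 ± 108 FPKM in MATa cells (log2 change 1.92 ± 0.10, adjusted p = 2.49e-08), and GPP1 fell from 13774 ± 1967 to 8074 ± 586 FPKM (log2 change -0.76 ± 0.11, adjusted p = 7.96e-05; log2 change -1.05 ± 0.11, adjusted p = 5.99e-06 in MATα-playing-a cells). Genes that fell most were MAE1, mitochondrial malic enzyme, in MATa cells (log2 change -1.48 ± 0.17, adjusted p = 1.43e-05), RAP1, an activator of glycolytic and ribosomal protein genes (log2 change -0.91 ± 0.06, adjusted p = 3.26e-07; log2 change -1.08 ± 0.06, adjusted p = 8.15e-08), and MIG1, a repressor of glucose-repressed genes (log2 change -0.85 ± 0.13, adjusted p = 9.84e-05; log2 change -1.30 ± 0.13, adjusted p = 3.35e-06). The activators of gluconeogenic and ethanol-use genes CAT8 and ADR1 rose, ADR1 from 19.0, 21.5 and 23.5 to 83.8, 82.5 and 92.5 FPKM in MATa cells (log2 change 1.97 ± 0.12, adjusted p = 8.32e-08), and the glycolytic activator gene GCR1 passed the test in neither strain. GPP2, CAT8, ADR1, MPC2, TKL2, GPM3, TAL1 and GCR1 were picked after their values were seen, so these pairs support no pattern.

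Marker genes were set against the labels. FIG1, FUS1 and PRM5, genes known to be induced by pheromone, rose in both strains, FIG1 from 17.4 ± 5.32 to 10661 ± 789 FPKM in MATa and from 12.3 ± 1.38 to 11125 ± 759.9 FPKM in MATα-playing-a cells. Of the 5 a-cell genes looked at, MFA1, MFA2, STE2 and AGA2 were high in MATa cells, and BAR1, a secreted protease that cleaves the pheromone, had a value of 0 in all 6 of these libraries and of 27.8 to 54.7 FPKM in MATα-playing-a cells. In the latter, STE2, the α-factor receptor, averaged 565 ± 62.1 FPKM without α-factor against 3674 ± 462 FPKM in MATa cells, and AGA2 was listed at 0 in all unstimulated libraries. MFA1 averaged 3313 and 4573 FPKM there without and with α-factor, and MFA2 167 and 152 FPKM. Of 4 α-cell genes STE3, MF(ALPHA)1 and MF(ALPHA)2 were listed at 0 in MATα-playing-a cells and SAG1 was high. In MATa cells STE3 averaged 10.7 and 19.7 FPKM, MF(ALPHA)1 6.70 and 0, MF(ALPHA)2 78.8 and 83.4, and SAG1 110 and 114 FPKM. STE3 and MF(ALPHA)2 were thus higher in MATa cells than in the strain described as MATα. Depth per library could not be recovered from the values, so the counting error of single values is unknown.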

How the data were processed

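RNA of 12 culture aliquots, the stimulated ones from what was left of the cultures that gave the unstimulated ones, was sequenced in 1 multiplexed lane after hot acid phenol extraction, per the labels. The authors deposited FPKM values per gene for each library; the tools given in the submitters' processing notes are Cufflinks 0.9.3, TopHat 1.1.4 and CASAVA 1.8.2. The genome build is not given in the sources used here. FPKM times gene length summed to 5.02 to 6.22 times the total the unit allows, so the deposited values carry a further scaling of unknown source. No step of whole reads was found in low values, so depth, counting error and intervals are unknown.

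Values entered as log2(FPKM + 1), a pseudocount of 1, keeping the 6608 genes whose mean FPKM reached 1. The 4 group means were estimated in 1 linear model with limma 3.58.1 (R 4.3.3, eBayes with an intensity trend), with 5 contrasts and 2-sided p-values adjusted by the Benjamini-Hochberg method over all tested genes, called below 0.05. The script was tested on simulated data. Fold changes are on the FPKM + 1 scale. Ratios of 18 isoenzyme pairs were compared by exact permutation within strains (response) or within treatments (strain). Python 3.11.15, pandas 2.3.3, numpy 2.4.6 and Biopython 1.88 (coding alignments) were used. Promoter windows were cut from the RefSeq R64 genome, to which 6048 gene IDs matched.

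The members, the 60-gene list, the pairs, the markers and the motifs were chosen with earlier results of these data known. Named genes were, in each contrast, the 10 called members with the largest change, both genes of each pair, and up to 3 called genes per direction of the 60-gene list, plus genes named in the text as picked later. Alternatives changed the pseudocount, the filter, the scaling, the trend, the libraries in the fit and the replicate block, and left out each library in turn. Proteins were not compared.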

Additional observations from a re-analysis of the deposited data

How the results depend on the processing

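Counts of members called for the MATa response, the MATα-playing-a response, the strain difference without α-factor and the difference of responses stayed within 1.5 times the reported count under all alternatives. The strain difference with α-factor had 1 called member as reported, 2 under quantile normalization (ADH2 added) and 3 when the fit held the compared libraries alone (HXK1 and TDH2 added), and 1 to 2 when each library was left out in turn. Of the isoenzyme ratios, 15 to 16 were called for the response when each library was left out. For the strain comparison 2 were called as reported, 0 with a pseudocount of 10, 0 with the replicate block and 0 to 2 when each library was left out. The last tests have fewer arrangements, so their smallest p is larger.

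Log2 changes of opposite sign are listed for members called as reported or in the alternative. Under quantile normalization they were, in MATa cells, HXK2 0.21, FBA1 0.12, TPI1 0.12, ENO2 0.16 and ADH1 0.18. In MATα-playing-a cells they were HXK2 0.00416, FBA1 0.12, TPI1 0.13, TDH2 0.0342, PGK1 0.27 and ENO1 0.27. At equal summed FPKM they were HXK2 0.27, ADH1 0.0347 and ADH3 0.28 in MATa cells and HXK2 0.0210 and PGK1 0.0413 in MATα-playing-a cells. Uncalled members changed sign as well. Members with a positive change numbered 22 as reported, 28 under quantile normalization and 30 at equal summed FPKM in MATa cells. The counts were 18, 25 and 22 in MATα-playing-a cells. Rescaling to equal sums shifts all genes of a library by 1 factor, whereas quantile normalization shifts each gene by its rank. A gene that keeps its rank thus shows no change under the latter. Which scaling is right was not tested.

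Whether the replicate numbers pair libraries was checked by the correlation of deviations from group means: libraries of 1 strain with the same number gave r of -0.21 to 0.20, 2 of 6 above 0.1, and 4 of 12 libraries correlated best with one of their own number. Although the aliquots share cultures, the labels do not say that a number marks a culture, and the numbers were not taken as pairs. With the number as a replicate block 20 members were called in MATa (13 higher, 7 lower) and 28 in MATα-playing-a cells (14 and 14), and with a block for strain and number 21 (13 and 8) and 28. Of all 6608 tested genes, the first block called 1873 higher and 2485 lower in MATa and 1951 and 2549 in MATα-playing-a cells. The second called 1839 and 2482, and 1938 and 2518.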
